A study of Mus musculus with 15 samples.

Results

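Transcripts of 57 genes that copy the genome or mark S phase were followed in 15 libraries of BV2 cells, an immortalised mouse microglial line. The genes were taken by symbol from the 54390 gene rows of each count table, and all 57 were found and had enough reads to be tested. The list goes by function and uses no measured value, although it was drawn up with earlier results of these data known. They fall into 9 roles: origin licensing (10 genes), helicase activation (6), the sliding clamp and its loader (6), primase and the replicative polymerases (9), single-strand binding and fragment joining (5), nucleotide supply (5), E2F factors and cyclin E (5), chromatin assembly and copying (4), and fork protection, repair and turnover (7).

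Copying of the genome starts before S phase, when ORC, CDC6 and CDT1 load the MCM2 to MCM7 ring onto origins. At the start of S phase CDC45, the GINS complex and MCM10 turn that ring into a moving helicase, the primase and polymerase alpha lay down primers, and polymerases delta and epsilon extend them while held by the PCNA clamp. Many of these genes are known targets of the E2F factors, which are held back by the retinoblastoma family until cyclin-dependent kinases release them, so their transcripts are used as a readout of the share of cells in or near S phase. Macrophage lines such as BV2 divide in culture, whereas microglia in the healthy brain divide rarely.

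The study deleted Trem2, a lipid-sensing receptor of macrophages, and loaded the cells with cholesterol. WT non-foamy cells (n = 4 libraries) and Trem2-/- non-foamy cells (n = 3) were kept in medium alone. WT foamy cells (n = 4) and Trem2-/- foamy cells (n = 4) received soluble cholesterol, complexed with methyl-beta-cyclodextrin, at 20 μg per ml overnight. No group received methyl-beta-cyclodextrin alone, so its effect and that of cholesterol cannot be told apart. The Trem2-/- line came from BV2 cells that stably express Cas9, were transfected with a Trem2 guide RNA and were grown from single clones, and the Cas9 line was itself 1 clone. The number of clones behind the libraries is not stated, and neither is whether the WT cells carried Cas9, so the effects of a clone and of the deletion cannot be told apart. The labels do not say that the libraries of a group came from separate cultures, so the p-values measure the spread between these libraries, which may be technical.

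Libraries held 23538963 to 41683825 counted reads. Levels are given as CPM, read counts scaled to a common library size with TMM factors, and differences as log2 fold changes ± s.e. with adjusted p from edgeR's quasi-likelihood test over 14237 genes. Trem2 itself lay at 327 to 415 CPM in WT non-foamy, 337 to 399.6 CPM in WT foamy, 214 to 232 CPM in Trem2-/- non-foamy and 218 to 227 CPM in Trem2-/- foamy libraries, so its transcript was lower but still present in the edited line. The 12 macrophage and microglia markers summed to 3586 to 4385 CPM in WT and 5242 to 5525 CPM in Trem2-/- libraries. In Trem2-/- cells without cholesterol 7 of the 12 were called higher and 2 lower, against 21.0% and 22.6% of all tested genes. The 3 that define microglia in the brain were near 0. Cx3cr1 (1.54 CPM in WT and 0.30 in Trem2-/- non-foamy means) and P2ry12 (1.74 and 0.598) were called lower, and Tmem119 had 0.374 and 0.386 CPM. The part of these marker differences in the results was not tested. The 11 markers of other cell types summed to at most 0.945 CPM, and 4 of them were at 0 in every library.

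Because E2F factors are known to act through short words next to the start of transcription, the promoters are shown before the values. Windows of 250 bases before to 50 bases after the start (RefSeq, build GRCm38.p6) were found for 48 of the 57 genes, 55 windows in all, since E2f2, Fen1, Lig1, Mcm7, Pold2 and Uhrf1 had several. A gene counts as holding a word if any of its windows does, here and in all sets compared. For 46 of the 48 genes at least 1 window lay within 100 bases of a start in the GENCODE annotation. The 5 windows that did not were those of E2f1 and Pcna and 1 each of E2f2, Fen1 and Lig1, and the window of E2f2 is the one that holds its word. The 4 E2F words searched on both strands were TTTCCCGC, TTTCGCGC, TTTGCCGC and TTTGGCGC. At least 1 of them was present in 20 of the 48 genes (41.7%), in 12 of 51 other replication genes (23.5%), in 4.77% of all tested genes with a window and in 2.61% of all 27025 genes of the table. Overlapping words were each counted, and 5 of the 48 genes (10.4%) held more than 1, against 0.226% of tested genes.

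Origin licensing was the role with the most matches, in 7 of its 9 genes with a window. The stretches below are those 7, each 28 bases, read 5′ to 3′ on the strand of the gene, with the E2F word or its reverse complement in capitals. Outside the word, which was searched for, the flanks differ from gene to gene.
Orc1, chr4:108579417-108579444, plus strand: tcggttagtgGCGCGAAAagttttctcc
Cdc6, chr11:98908003-98908030, plus strand: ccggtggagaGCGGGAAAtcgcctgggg
Cdt1, chr8:122568037-122568064, plus strand: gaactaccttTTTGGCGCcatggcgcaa
Mcm3, chr1:20820276-20820303, minus strand: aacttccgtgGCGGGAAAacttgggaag
Mcm5, chr8:75109350-75109377, plus strand: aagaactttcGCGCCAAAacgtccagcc
Mcm6, chr1:128359735-128359762, minus strand: attggacgggTTTGGCGCgaagtagctc
Mcm7, chr5:138171850-138171877, minus strand: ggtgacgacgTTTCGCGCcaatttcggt

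The word began 149 to 27 bases before the start in Orc1, Cdc6, Mcm5 and Mcm6, and 16 to 32 bases after it in Cdt1, Mcm3 and Mcm7. Where a gene held several words, the capitals mark 1 of them. The Mcm5 stretch also holds TTTCGCGC, which overlaps the marked word and is partly in small letters.

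Whole windows are shown for the most abundant gene of each role, whether or not a word matched, so that windows with and without the words can be compared. Gins2 and Tipin, the most abundant of their roles, had no window. Capitals mark E2F words on either strand.
Mcm6, chr1:128359656-128359955, minus strand: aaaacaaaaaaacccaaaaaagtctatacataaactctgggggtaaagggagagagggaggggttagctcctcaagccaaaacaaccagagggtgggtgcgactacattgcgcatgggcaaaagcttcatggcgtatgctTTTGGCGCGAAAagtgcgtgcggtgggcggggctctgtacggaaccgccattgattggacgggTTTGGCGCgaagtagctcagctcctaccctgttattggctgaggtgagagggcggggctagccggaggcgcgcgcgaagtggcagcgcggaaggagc
Pcna, chr2:132253131-132253430, minus strand: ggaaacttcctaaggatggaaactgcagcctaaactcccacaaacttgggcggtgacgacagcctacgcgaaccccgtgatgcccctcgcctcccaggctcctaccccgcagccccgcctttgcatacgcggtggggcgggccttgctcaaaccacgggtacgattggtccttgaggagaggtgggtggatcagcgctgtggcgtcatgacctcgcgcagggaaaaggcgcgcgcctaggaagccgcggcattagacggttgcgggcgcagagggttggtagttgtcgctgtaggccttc
Pola1, chrX:93632106-93632405, minus strand: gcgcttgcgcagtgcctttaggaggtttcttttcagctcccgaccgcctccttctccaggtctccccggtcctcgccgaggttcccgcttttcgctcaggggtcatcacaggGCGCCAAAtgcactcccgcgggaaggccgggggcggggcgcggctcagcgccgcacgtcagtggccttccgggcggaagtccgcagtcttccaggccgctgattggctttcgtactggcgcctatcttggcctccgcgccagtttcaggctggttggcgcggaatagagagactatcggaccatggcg
Rpa1, chr11:75348334-75348633, minus strand: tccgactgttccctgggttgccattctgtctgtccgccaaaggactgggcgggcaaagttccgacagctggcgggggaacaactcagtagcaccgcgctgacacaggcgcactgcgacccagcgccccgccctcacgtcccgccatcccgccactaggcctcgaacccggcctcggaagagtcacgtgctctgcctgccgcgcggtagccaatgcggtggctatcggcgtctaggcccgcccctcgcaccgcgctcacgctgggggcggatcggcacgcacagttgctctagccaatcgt
Rrm1, chr7:102441445-102441744, plus strand: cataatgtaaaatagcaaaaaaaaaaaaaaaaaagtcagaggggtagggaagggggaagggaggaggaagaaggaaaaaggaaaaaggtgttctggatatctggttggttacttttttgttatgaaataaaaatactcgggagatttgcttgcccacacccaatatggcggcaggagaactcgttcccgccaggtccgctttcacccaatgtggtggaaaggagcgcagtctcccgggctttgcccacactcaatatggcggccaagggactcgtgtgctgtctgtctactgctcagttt
E2f1, chr2:154569377-154569676, minus strand: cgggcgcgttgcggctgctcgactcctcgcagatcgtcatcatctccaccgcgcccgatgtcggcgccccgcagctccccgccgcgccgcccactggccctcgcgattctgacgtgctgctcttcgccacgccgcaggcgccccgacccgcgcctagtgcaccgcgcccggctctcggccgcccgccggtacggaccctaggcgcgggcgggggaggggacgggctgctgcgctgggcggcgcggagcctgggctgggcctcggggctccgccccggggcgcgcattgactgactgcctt
Uhrf1, chr17:56303087-56303386, plus strand: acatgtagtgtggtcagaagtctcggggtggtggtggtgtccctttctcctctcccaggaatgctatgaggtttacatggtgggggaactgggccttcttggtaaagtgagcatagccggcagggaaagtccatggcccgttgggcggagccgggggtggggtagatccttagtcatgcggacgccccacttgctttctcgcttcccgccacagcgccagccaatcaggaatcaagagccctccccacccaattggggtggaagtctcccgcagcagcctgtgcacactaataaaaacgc

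Mcm6 held 3 words, of which a pair overlapped, and Pola1 held 1. The other 5 windows held none, which says only that these letters are absent from those windows. Uhrf1 has a further window around a start inside the gene, not shown, which held 1 word, so Uhrf1 is among the 20 genes. None of the 5 nucleotide supply genes held a word either. The cell cycle homology words TTTGAA and TTCGAA were found in 18.8% of the 48 genes and in 17.0% of tested genes, and CCAAT in 62.5% and 43.2%.

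Without cholesterol, the replication genes were lower in Trem2-/- than in WT cells almost without exception. Of the 57, 54 were called lower (adjusted p under 0.05) and 0 higher, against 22.6% of all tested genes called lower. None was higher at an unadjusted p under 0.05 in edgeR or at an adjusted p under 0.05 in DESeq2, and no scaling changed that. In 54 every Trem2-/- library lay under every WT library, which held for 23.5% of all tested genes. The median of the 57 log2 fold changes was -0.91, and the median over all tested genes was 0.02. The genes not called were Rfc2, Pola2 and E2f2. In bulk RNA, fewer cells in S phase and less of these RNAs per cell cannot be told apart.

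**Figure D1:**
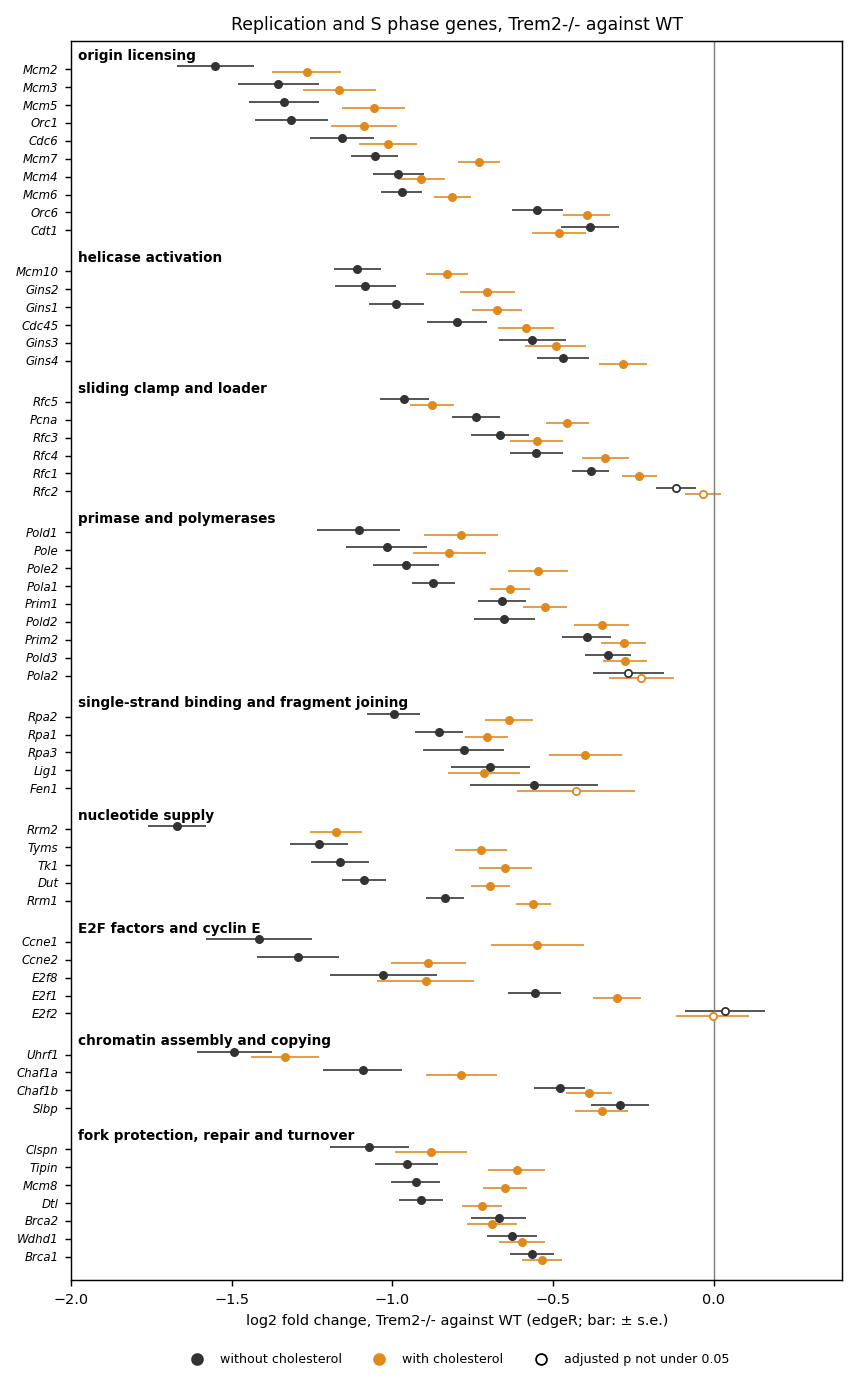
Log2 fold change of each of the 57 genes in Trem2-/- against WT cells, by role, without (dark) and with (orange) cholesterol, with bars of ± 1 s.e. Nearly all points lie left of 0, and the orange point lies right of the dark one for 52 of the 57 genes.

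Origin licensing was among the most lowered roles, with all 10 genes called and a median of -1.11. Mcm2, a subunit of the MCM ring (chr6:88883474-88898780), had 78.4, 89.2, 65.4 and 96.4 CPM in WT and 26.9, 27.2 and 30.3 CPM in Trem2-/- libraries. The lowest WT library lay far above the highest Trem2-/- library, and the difference was -1.55 ± 0.12 (adjusted p = 6.3e-10, edgeR). Mcm5 and Mcm3 differed by -1.34 ± 0.11 and -1.36 ± 0.13. Mcm6 (chr1:128331590-128359660), the most abundant of the ring per kilobase of exon, had 415, 407, 365 and 402 CPM in WT and 193, 202 and 213 CPM in Trem2-/- libraries, a difference of -0.97 ± 0.06 (adjusted p = 6.2e-11, edgeR). Its WT and Trem2-/- libraries are separated by a gap wider than the spread within either group. Orc1, the largest subunit of the origin recognition complex, had 11.9, 11.8, 13.8 and 13.7 CPM in WT and 5.27, 4.84 and 5.30 CPM in Trem2-/- libraries and differed by -1.32 ± 0.11. Cdc6, which works with ORC to load the ring, differed by -1.16 ± 0.10. The smallest differences of the role were those of Orc6 (-0.55 ± 0.08) and of Cdt1 (-0.39 ± 0.09, adjusted p = 0.001, edgeR), the loading factor that is destroyed once S phase begins.

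Within the ring the log2 differences ran from -1.55 (Mcm2) to -0.97 (Mcm6), and whether they differ from each other was not tested. Taking the 6 ring genes per kilobase of exon as a whole, Mcm6 made up 35.0% ± 1.33 (SD, n = 4) in WT non-foamy and 38.6% ± 0.530 (n = 3) in Trem2-/- non-foamy libraries. Mcm2 made up 4.84% ± 0.470 and 3.60% ± 0.0633, and Mcm3 12.9% ± 1.24 and 11.0% ± 0.684. These shares use the union of annotated exons as the length, and reads were not assigned to transcripts, so the share of a gene depends on how long its model is. With cholesterol the Mcm6 share was 34.6% ± 0.764 (n = 4) in WT and 37.0% ± 2.34 (n = 4) in Trem2-/- libraries, a gap close to the larger SD. The Mcm2 share was 4.85% ± 0.318 and 3.77% ± 0.202. No test was made on these shares.

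In helicase activation all 6 genes were called lower, with a median of -0.89. Mcm10, a scaffold for firing origins, had 46.8, 48.5, 46.2 and 52.99 CPM in WT and 23.1, 23.2 and 21.4 CPM in Trem2-/- libraries, a difference of -1.11 ± 0.07 (adjusted p = 6.6e-11, edgeR). The WT and Trem2-/- libraries did not overlap. Gins2 and Gins1, subunits of the 4-part GINS complex, differed by -1.08 ± 0.09 and -0.99 ± 0.09, whereas Gins3 and Gins4 differed by -0.57 ± 0.10 and -0.47 ± 0.08. Reads of Gins2 carry a limit: 67.3% of its exonic bases overlap Gse1 on the other strand, and the strand setting of the counting is not stated. Cdc45, the third part of the helicase, differed by -0.80 ± 0.09.

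Of the clamp and its loader, 5 of 6 genes were called lower, with a median of -0.61. Pcna, the ring that holds the polymerases on DNA and the most abundant of all 57 genes, had 711, 683, 789 and 683 CPM in WT and 439.5, 429 and 419 CPM in Trem2-/- libraries, a difference of -0.74 ± 0.07 (adjusted p = 3.2e-08, edgeR). The lowest WT library lay well above the highest Trem2-/- library. Of the stretches of 50 bases in its transcripts, 19.1% also occur in the pseudogene Pcna-ps2. Among the subunits of replication factor C, which opens the clamp, Rfc5 differed by -0.96 ± 0.08 and Rfc3 by -0.66 ± 0.09, but Rfc2 had 165, 176, 183 and 167 CPM in WT and 157, 162 and 159 CPM in Trem2-/- libraries, a difference of -0.12 ± 0.06 (adjusted p = 0.12, edgeR). The subunits of this complex had differences from -0.96 to -0.12 on the log2 scale.

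Of the primase and polymerase genes, 8 of 9 were called lower, with a median of -0.66. Pold1, the catalytic subunit of polymerase delta, had 29.7, 31.7, 29.2 and 33.98 CPM in WT and 12.9, 14.4 and 16.2 CPM in Trem2-/- libraries, a difference of -1.11 ± 0.13. Pole, the catalytic subunit of polymerase epsilon, and Pola1, that of polymerase alpha, differed by -1.02 ± 0.13 and -0.87 ± 0.07. The accessory subunits of the same enzymes spread widely. Pole2 differed by -0.96 ± 0.10 and Pold2 by -0.65 ± 0.09, Pold3 by -0.33 ± 0.07, and Pola2, with 36.96, 40.1, 33.2 and 44.3 CPM in WT and 29.7, 30.9 and 35.99 CPM in Trem2-/- libraries, by -0.27 ± 0.11 (adjusted p = 0.054, edgeR), which missed the threshold. Pola2 passed it when WT non-foamy replicate 3 or Trem2-/- non-foamy replicate 3 was left out (adjusted p = 0.014 and 0.027, edgeR). The primase subunits Prim1 and Prim2 differed by -0.66 ± 0.07 and -0.40 ± 0.07.

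All 5 genes of single-strand binding and fragment joining were called lower, with a median of -0.78. The parts of replication protein A, which coats unwound DNA, differed by -0.997 ± 0.08 (Rpa2), -0.86 ± 0.07 (Rpa1) and -0.78 ± 0.13 (Rpa3). Lig1, the ligase that seals Okazaki fragments, differed by -0.70 ± 0.12. Fen1, the flap nuclease, had 6.33, 10.2, 4.84 and 8.30 CPM in WT and 5.27, 4.91 and 4.999 CPM in Trem2-/- libraries and differed by -0.56 ± 0.20 (adjusted p = 0.027, edgeR). Its WT libraries overlap the Trem2-/- libraries, since WT replicate 3 was the lowest of all. The call was lost in 5 of the 7 fits without 1 library, namely without WT non-foamy replicate 2 (adjusted p = 0.13, edgeR) or 4 (0.071) or any of the Trem2-/- replicates (0.056 to 0.077). Of its exonic bases, 84.2% overlap Tmem258 and Gm10143 on the other strand, and its counts were the lowest of the 57 genes.

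Nucleotide supply had the lowest median of all roles, -1.16, with all 5 genes called. Rrm2 (chr12:24708241-24714146), the S phase subunit of ribonucleotide reductase, had 42.2, 43.1, 42.6 and 48.2 CPM in WT and 14.9, 13.8 and 12.7 CPM in Trem2-/- libraries. That is the largest loss among the 57 genes, -1.67 ± 0.09 (adjusted p = 2.2e-12, edgeR), or 68.6% less. Rrm1, the large subunit of the same enzyme, had 302, 299, 295 and 299 CPM in WT and 157, 171 and 173 CPM in Trem2-/- libraries and differed by -0.84 ± 0.06. Its groups were also apart, with a smaller difference than that of Rrm2. Tyms and Dut, which make and protect the thymidylate pool, and Tk1, which salvages thymidine, differed by -1.23 ± 0.09, -1.09 ± 0.07 and -1.16 ± 0.09.

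Among E2F factors and cyclin E, 4 of 5 genes were called lower. Ccne1 (chr7:38097984-38107534) and Ccne2, which encode the E-type cyclins that drive entry into S phase, differed by -1.42 ± 0.17 and -1.29 ± 0.13. E2f8, a repressor in the E2F family, differed by -1.03 ± 0.17 and E2f1, an activator, by -0.56 ± 0.08. E2f2 (chr4:136172390-136196060), another activator, had 17.7, 18.4, 15.8 and 17.4 CPM in WT and 17.7, 17.1 and 18.4 CPM in Trem2-/- libraries. The libraries of the genotypes overlapped, and the difference of 0.03 ± 0.12 (adjusted p = 0.85, edgeR) changed sign with the scaling, to -0.11 with total counts alone.

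All 4 genes of chromatin assembly and copying were called lower. Uhrf1 (chr17:56303321-56323486), which reads hemimethylated DNA behind the fork, had 104, 125, 92.2 and 132 CPM in WT and 39.4, 37.9 and 43.6 CPM in Trem2-/- libraries, a difference of -1.49 ± 0.12 (adjusted p = 9.6e-10, edgeR). The WT libraries all exceeded the Trem2-/- ones, although they spread from 92.2 to 132 CPM. The subunits of the histone chaperone CAF-1 differed by -1.09 ± 0.12 (Chaf1a) and -0.48 ± 0.08 (Chaf1b), and 52.5% of the exonic bases of Chaf1a overlap Ubxn6 on the other strand. Slbp, which binds the stem-loop of histone mRNAs, had 35.3, 37.6, 37.4 and 36.8 CPM in WT and 29.4, 32.6 and 28.1 CPM in Trem2-/- libraries and differed by -0.29 ± 0.09 (adjusted p = 0.011, edgeR). Its call was lost without Trem2-/- non-foamy replicate 3 (adjusted p = 0.060, edgeR).

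All 7 genes of fork protection, repair and turnover were called lower, with a median of -0.91. Clspn and Tipin, mediators of the replication checkpoint, differed by -1.07 ± 0.12 and -0.96 ± 0.10. Dtl, the adaptor of the ligase that destroys CDT1, differed by -0.91 ± 0.07, and Mcm8, a relative of the MCM ring that acts in repair, by -0.93 ± 0.08. Brca2, Wdhd1 and Brca1 had smaller differences of -0.67 ± 0.09, -0.63 ± 0.08 and -0.57 ± 0.07. None of the 7 had libraries that overlapped between genotypes.

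**Figure D2:**
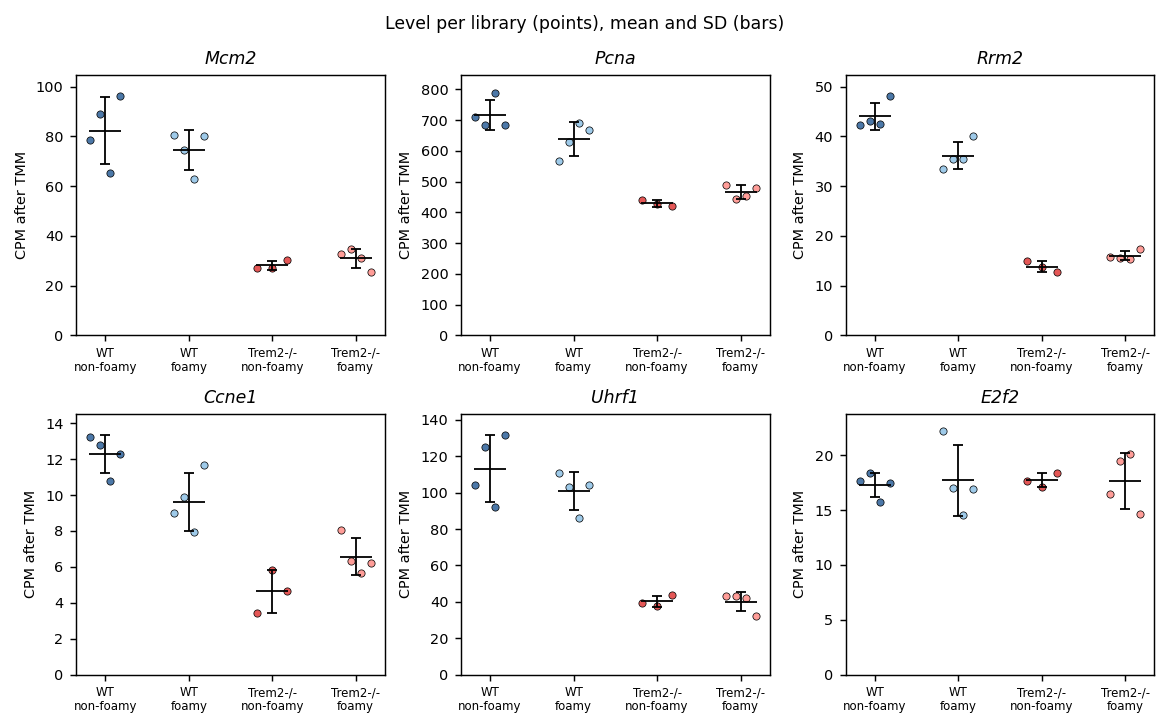
CPM of 6 genes in each of the 15 libraries (points), with mean and SD (bars), in the 4 groups. Mcm2, Pcna, Rrm2, Ccne1 and Uhrf1 are lower in all non-foamy Trem2-/- libraries than in all non-foamy WT libraries, and E2f2 is not.

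With cholesterol the genotypes differed in the same direction. Of the 57 genes, 53 were called lower in Trem2-/- foamy than in WT foamy cells and 0 higher (0 also at an unadjusted p under 0.05 in edgeR and in DESeq2), against 15.9% of all tested genes called lower. The libraries of 50 did not overlap, against 15% of tested genes. The median was -0.64, and over all tested genes 0.00033. Rfc2 (-0.03 ± 0.06), Pola2 (-0.23 ± 0.10), E2f2 (-0.00 ± 0.11) and Fen1 (-0.43 ± 0.18) were not called. Fen1 was called without Trem2-/- foamy replicate 1 and Pola2 without Trem2-/- foamy replicate 2 (adjusted p = 0.017 and 0.024, edgeR).

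Uhrf1 and Mcm2 had the lowest values with cholesterol, -1.33 ± 0.11 and -1.27 ± 0.11. Uhrf1 had 111, 103, 86.03 and 104 CPM in WT and 43.01, 43.03, 41.96 and 32.1 CPM in Trem2-/- foamy libraries, and Mcm2 had 80.8, 74.5, 62.9 and 80.1 and 32.8, 34.6, 30.9 and 25.4 CPM. In both genes the lowest Trem2-/- value was that of replicate 4, and the groups stayed apart with or without it. Rrm2 followed with -1.18 ± 0.08 and Mcm3 with -1.17 ± 0.11.

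Within WT cells, cholesterol was followed by slightly lower values for most of the genes. Dut, which removes dUTP, and Rrm2 were the 2 called lower, against 1.14% of all tested genes. DESeq2 called 8 of the 57 lower, and 456 lower among all genes. The log2 fold change was below 0 for 54 of the 57, against 6946 of all 14237 tested genes, with a median of -0.14 (0.01 over all tested genes). Of the 57, 22 had an unadjusted p under 0.05 in edgeR, all lower, against 1177 lower among all 14237 tested genes. In 14 genes every foamy library lay under every non-foamy library, against 5.16% of tested genes. Dut had 88.3, 85.6, 89.5 and 91.1 CPM without and 64.5, 72.3, 70.3 and 76.5 CPM with cholesterol, a difference of -0.32 ± 0.06 (adjusted p = 0.004, edgeR). All foamy libraries lay under all non-foamy ones. Rrm2 had 42.2, 43.1, 42.6 and 48.2 CPM without and 33.6, 35.5, 35.5 and 40.01 CPM with cholesterol, a difference of -0.29 ± 0.08 (adjusted p = 0.043, edgeR). Its call was lost in 6 of the 8 fits without 1 library, namely WT non-foamy replicate 1, 2 or 4 or WT foamy replicate 1, 2 or 3 (adjusted p = 0.073 to 0.15, edgeR). All 5 nucleotide supply genes had foamy libraries under the non-foamy ones, with a median of -0.26. For Tk1 the gap was narrow, between 78.04 CPM in WT foamy replicate 4 and 78.11 CPM in WT non-foamy replicate 2. Tk1, Rrm1 and Tyms were not called (adjusted p = 0.20, 0.078 and 0.080, edgeR).

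Replicate 4 of the WT foamy group stood apart over the genes as a whole. The median of the 57 deviations from the mean of all libraries was 0.36 on the log2 scale there and 0.22 to 0.24 in the other 3 WT foamy libraries. Non-foamy WT libraries lay at 0.39 to 0.46, Trem2-/- non-foamy libraries at -0.48 to -0.42 and Trem2-/- foamy libraries at -0.44 to -0.31. The genotypes were thus separated by more than the whole range within either, while WT foamy libraries lay close under WT non-foamy ones. Without WT foamy replicate 4, 5 of the 57 genes were called lower in the WT response instead of 2, and the median was -0.18.

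**Figure D3:**
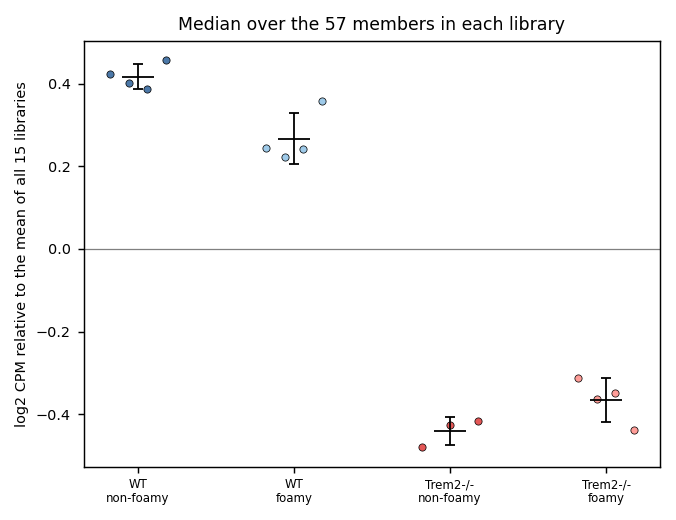
Median over the 57 genes of the log2 deviation of each library from the mean of all 15, with group mean and SD. WT libraries lie above 0 and Trem2-/- libraries below 0, and WT foamy replicate 4 lies above the other WT foamy libraries.

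Within Trem2-/- cells most genes had slightly higher values with cholesterol, none of them called. In edgeR's test 0 of the 57 genes were called in either direction, against 0.105% of all tested genes called higher, and DESeq2 also called 0 higher. The log2 fold change was above 0 for 41 of the 57 with a median of 0.06. Among all 14237 tested genes it was above 0 for 7305, with a median of 0.0045. Of the 57, 5 had an unadjusted p under 0.05 in edgeR, all higher, against 575 higher among all 14237 tested genes. In 3 genes every foamy library lay above every non-foamy library, against 5.38% of tested genes. Ccne1 had the largest value, 0.51 ± 0.17 (adjusted p = 0.56, edgeR), and Tk1 0.31 ± 0.09 (adjusted p = 0.38, edgeR).

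The difference between the responses, that is, the response in Trem2-/- minus that in WT cells, was tested in the same fit. It was called above 0 for 5 of the 57 genes and below 0 for 0, against 1.99% of all tested genes called above 0. DESeq2 called 10 above 0 and 0 below (567 and 418 among all genes), and edgeR found 0 below 0 at an unadjusted p under 0.05. Those 5 were Rrm2, Tyms, Tk1 and Dut, 4 of the 5 nucleotide supply genes, and Ccne1. The value lay above 0 for 52 of the 57 genes, against 7059 of all 14237 tested genes, with a median of 0.19 (-0.00245 over all tested genes). The exceptions below 0 were Cdt1, Lig1, E2f2, Slbp and Brca2. Of the 57, 20 had an unadjusted p under 0.05 in edgeR, all above 0, against 1333 above 0 among all 14237 tested genes. The comparisons share their groups, so the smaller genotype difference with cholesterol and this difference between responses are the same quantity.

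Tk1, thymidine kinase, had 84.1, 78.1, 90.8 and 79.7 CPM in WT non-foamy, 64.5, 70.5, 76 and 78.04 CPM in WT foamy, 34.4, 36.05 and 40.9 CPM in Trem2-/- non-foamy and 46.7, 48.9, 49.97 and 38.5 CPM in Trem2-/- foamy libraries. The foamy libraries lay under the non-foamy ones in WT, though only narrowly. In Trem2-/- cells 3 of the 4 foamy libraries lay above all non-foamy ones. The responses were -0.20 ± 0.08 and 0.31 ± 0.09, and they differed by 0.51 ± 0.12 (adjusted p = 0.021, edgeR). Tyms, thymidylate synthase, had 59.4, 59.8, 58.05 and 56.7 CPM in WT non-foamy, 45.1, 46.8, 50.3 and 53.5 CPM in WT foamy, 22.4, 26.1 and 26.5 CPM in Trem2-/- non-foamy and 33.9, 25.3, 30.2 and 28.9 CPM in Trem2-/- foamy libraries. Its responses of -0.26 ± 0.08 in WT and 0.25 ± 0.09 in Trem2-/- cells differed by 0.50 ± 0.12 (adjusted p = 0.022, edgeR). In Trem2-/- cells the libraries with and without cholesterol overlapped. Rrm2 responded by -0.29 ± 0.08 and 0.21 ± 0.09, a difference of 0.49 ± 0.12 (adjusted p = 0.021, edgeR), and Dut by -0.32 ± 0.06 and 0.07 ± 0.07, a difference of 0.39 ± 0.09 (adjusted p = 0.018, edgeR).

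Ccne1, cyclin E1, had 13.2, 12.8, 10.8 and 12.3 CPM in WT non-foamy, 8.99, 9.90, 7.92 and 11.7 CPM in WT foamy, 3.45, 5.85 and 4.63 CPM in Trem2-/- non-foamy and 8.03, 6.33, 5.66 and 6.24 CPM in Trem2-/- foamy libraries. The Trem2-/- foamy libraries overlapped the non-foamy ones and, through replicate 1, the WT foamy ones, and the genotypes did not overlap without cholesterol. The difference between its responses was the largest of the 57, 0.87 ± 0.22 (adjusted p = 0.030, edgeR). The genotype difference was -1.42 ± 0.17 without and -0.55 ± 0.15 with cholesterol. Ccne2, the other E-type cyclin, had a difference between responses of 0.41 ± 0.17 (adjusted p = 0.21, edgeR).

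Each of the 5 calls was lost in some fits. Of the 15 fits that left out 1 library, the call of Ccne1 was lost in 6 (WT non-foamy replicate 1, WT foamy 2 and 3, Trem2-/- non-foamy 1 and 3, Trem2-/- foamy 1; adjusted p = 0.050 to 0.12, edgeR), that of Rrm2 in 3 (WT foamy 2, Trem2-/- non-foamy 2 and 3; 0.052 to 0.070), that of Tyms in 3 (WT foamy 2, Trem2-/- non-foamy 1, Trem2-/- foamy 1; 0.058 to 0.087), that of Tk1 in 3 (WT foamy 2, Trem2-/- non-foamy 1 and 2; 0.052 to 0.080) and that of Dut in 2 (Trem2-/- non-foamy 1 and 2; 0.050 to 0.065). Rrm1, the remaining nucleotide supply gene, had 0.28 ± 0.08 (adjusted p = 0.055, edgeR) and was called without WT non-foamy replicate 3 or WT foamy replicate 4 (adjusted p = 0.047 and 0.038, edgeR). The directions did not change in any of these fits.

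**Figure D4:**
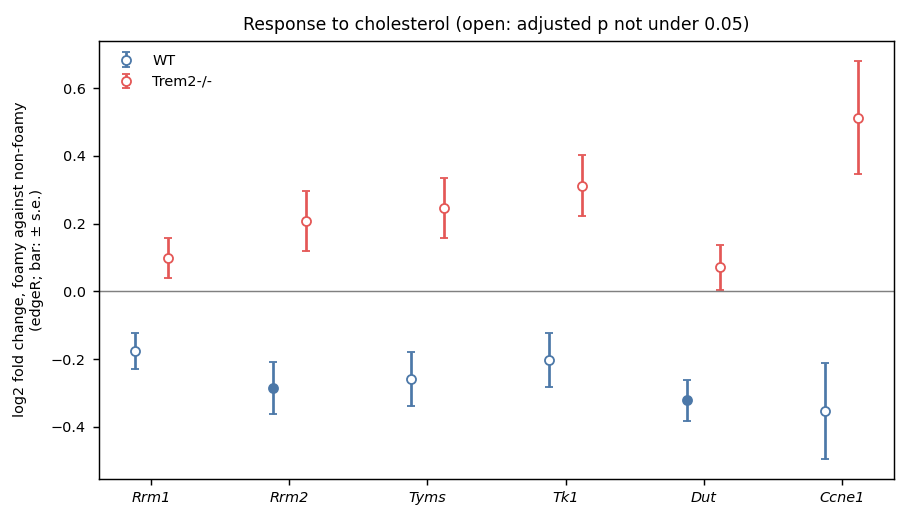
Log2 fold change of the 5 nucleotide supply genes and Ccne1 in foamy against non-foamy cells of each genotype, with bars of ± 1 s.e. and filled points for adjusted p under 0.05. WT values lie below 0 and Trem2-/- values above 0 for each gene, and only Rrm2 and Dut in WT are filled.

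Other genes of the pathway, listed by role and not by how they moved, numbered 67. E2f7 was listed at 0 in every library, and of the 66 tested, 49 were called lower and 5 higher in Trem2-/- cells without cholesterol, against 22.6% and 21.0% of all tested genes, with a median of -0.46. With cholesterol 39 were called lower and 1 higher, against 15.9% and 14.3%, with a median of -0.31. In the checkpoint list Chek1, a checkpoint kinase, differed by -1.25 ± 0.10 without cholesterol. Among other origin genes, 9 of 13 were called lower, including Orc2 (-0.99 ± 0.08) but not Mcmbp (-0.02 ± 0.08).

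The 5 genes called higher without cholesterol, a smaller share than among all tested genes, were Pold4 (0.58 ± 0.10), the smallest subunit of polymerase delta, Samhd1 (0.28 ± 0.05), which degrades deoxynucleotides, Rrm2b (0.27 ± 0.11), the ribonucleotide reductase subunit used outside S phase, Rb1 (0.25 ± 0.08), the retinoblastoma protein that holds E2F back, and Tfdp2 (0.22 ± 0.08), an E2F partner. With total counts alone, 1 of the 66 was called higher. Pold4 was also called with cholesterol (0.28 ± 0.09, adjusted p = 0.022, edgeR), and the other 4 were not. Rb1 and Tfdp2 went against most of their list. Of the 13 other E2F network genes tested, 8 were called lower and 2 higher without cholesterol, against 22.6% and 21.0% of all tested genes. The lower ones include Tfdp1 (-0.86 ± 0.07) and Rbl1 (-0.84 ± 0.09). In the WT response 4 of the 66 were called lower, against 1.14% of all tested genes, among them Dbf4, Nasp and Ccna2, and the difference between responses was called above 0 for 5, against 1.99% of all tested genes, among them Orc2, Dtymk, Nasp and Tfdp1. Dtymk, thymidylate kinase, had a difference between responses of 0.46 ± 0.11.

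Among histone genes, picked by symbol alone, the calls were in the other direction. A symbol does not show that a gene is expressed only in S phase, and this was not tested. Of 28 tested, 14 were called higher, 0 lower and 14 not called in Trem2-/- cells without cholesterol, against 21.0% of all tested genes called higher, with a median of 0.81. With cholesterol 11 were called higher, 0 lower and 17 not called, against 14.3%, with a median of 0.73. In edgeR 0 were lower at an unadjusted p under 0.05, DESeq2 called 0 lower, and with total counts alone 13 and 10 were called higher and 0 lower. Most lay at low levels, and H2bc4, H4c9 and H2bc21 were the most abundant. The filter can keep a gene that is high in 1 group alone, so the 28 may favour genes high in Trem2-/- cells. H4c3, for instance, had means of 0.139 CPM in WT and 0.911 CPM in Trem2-/- non-foamy libraries. Only 13 of the genes had at least 10 counts in every library. Of those, 10 were called higher and 0 lower without cholesterol (median 0.72), and 10 and 0 with it (median 0.74). H2bc21 rose from 15.5 ± 0.80 CPM (SD, n = 4) in WT to 26.7 ± 1.24 CPM (n = 3) in Trem2-/- non-foamy cells, a difference of 0.78 ± 0.09, and H4c9 differed by 0.53 ± 0.10 without and 0.92 ± 0.09 with cholesterol. The mRNAs of most S phase histone genes end in a stem-loop and have no poly(A) tail, so a library made by poly(A) selection captures only a part of them. The kit is named as TruSeq RNA Library Prep. Whether it included that selection is not stated in the sources used here, and whether capture plays a part in the result was not tested. Histone genes of 1 cluster are also alike in sequence, and how reads with several matches were counted is not stated.

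**Figure D5:**
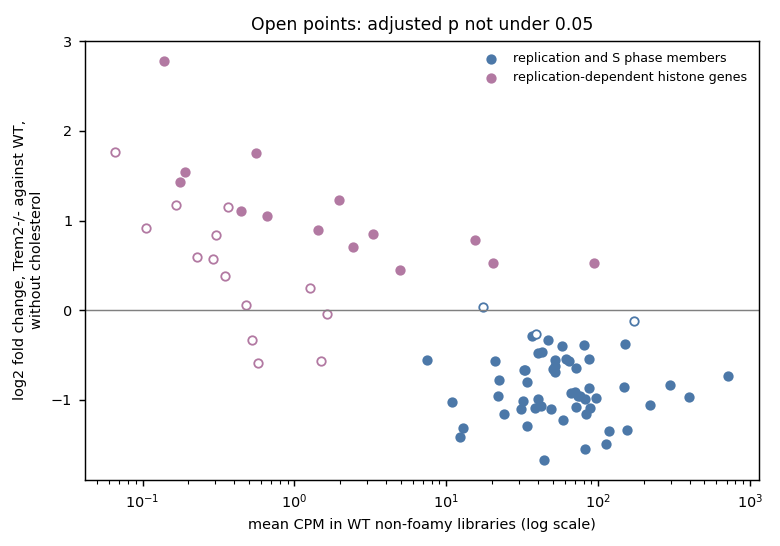
Log2 fold change in Trem2-/- against WT cells without cholesterol against the mean CPM in WT non-foamy libraries (log axis) for the 57 genes and the 28 histone genes. All called members lie below 0 and all called histone genes above 0.

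The promoter words and the size of the loss can be set side by side without a test. The 20 genes with an E2F word had a median of -0.94 (range -1.49 to 0.03) and the 28 with a window but no word -0.79 (range -1.67 to -0.27) without cholesterol. With cholesterol the medians were -0.72 and -0.56. The ranges overlap nearly whole, and Rrm2, the most lowered gene, had no word while E2f2, with the highest value, had 1.

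Per kilobase of exon, Pcna had by far the highest level of the 57 genes in WT non-foamy cells, 299 CPM per kilobase, followed by Mcm6 at 85.1, Mcm7 at 49.4 and Tipin at 40.7. E2f8 and Brca2 were the lowest at 1.998 and 2.40. In Trem2-/- non-foamy cells the same measure gave 179 for Pcna, 43.4 for Mcm6, 27.3 for Rfc4, 25.3 for Rfc2, 24.1 for Pold2 and 23.8 for Mcm7. Rfc2, which was not called, thus stood above Mcm7 in Trem2-/- but under it in WT cells. Exonic overlap or shared sequence touched 12 of the 57 genes by 10% or more. Among the other 45, 43 were called lower without and 43 with cholesterol, with medians of -0.86 and -0.61.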

How the data were processed

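RNA from 15 BV2 libraries was measured by bulk RNA-seq. The authors deposited raw read counts per gene, 1 table of whole numbers per library. Their CHURP pipeline ran Trimmomatic, HISAT2 against GRCm38 (mm10 in the labels) and featureCounts. Whether strand was used, and how multi-mapping reads were treated, is not given in the sources used here, which bears on overlapping and similar genes.

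Groups were taken from the labels. Counts were scaled with TMM factors (0.918 to 1.11), filtered with filterByExpr (minimum count 10), which kept 14237 of 54390 genes and 99.97% of counts, and fitted together with 1 mean per group (glmQLFit and glmQLFTest, edgeR 4.0.16, R 4.3.3). The spread between libraries of a group beyond counting noise was 10.2% (edgeR's BCV), and it may be technical. Totals of 23538963 to 41683825 reads put the lowest count of any member at 99. The 5 contrasts were tested, and a gene was called at a Benjamini-Hochberg adjusted p under 0.05 over all tested genes. The test was checked on simulated counts. Alternatives were DESeq2 1.42.0, RLE factors, total counts alone, no filter, a stricter filter (10 counts in each library), fits of the compared groups alone, a replicate block and leaving out each library; a restriction to members that share little sequence was added after seeing the data. Replicate pairs of every group differed by more than sampling noise.

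Members, lists and roles were chosen with earlier results of these data known. All members could be named, and of other replication genes those with the lowest or highest adjusted p in a list or called against its direction; Dtymk and the genes called in the cholesterol responses were named after their values were seen. Values of some of these other genes are not reported here. Overlaps and shared 50-base stretches came from GENCODE M21, promoters from RefSeq.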

Additional observations from a re-analysis of the deposited data

Results flagged for a closer look

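A test for a sample far from the others of its group was applied to 174 sets of 4 libraries, the CPM of each of the 57 genes and their library median. It marked 13 (7.47%), where chance marks about 1 in 20. The median of the 57 genes in WT foamy replicate 4 was 0.3583 on the log2 scale, above 0.2228 to 0.2448 in the other 3. The same library was high for Rrm1 (279.2 CPM, against 258.7 to 260.3) and Rfc5 (77.9 CPM, against 68.3 to 69.0). WT foamy replicate 3 was low for Mcm10 (41.36 CPM, against 44.3 to 44.8) and Clspn (32.62 CPM, against 39.4 to 40.8). WT non-foamy replicate 3 was high for Gins2 (81.73 CPM, against 66.0 to 68.5) and Rfc4 (69.58 CPM, against 57.9 to 59.6), replicate 4 for Rrm2 (48.19 CPM, against 42.2 to 43.1) and E2f8 (14.15 CPM, against 9.42 to 10.1), and replicate 2 was low for Mcm8 (60.07 CPM, against 67.0 to 68.2). Trem2-/- foamy replicate 4 was low for Cdt1 (51.39 CPM, against 62.1 to 62.8) and Uhrf1 (32.12 CPM, against 42.0 to 43.0), and replicate 1 was high for Dut (46.95 CPM, against 42.5 to 42.8).

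The responses to cholesterol differed between the genotypes, by the interaction term in edgeR, for 5 genes. The difference (Trem2-/- minus WT, log2) was 0.8667 for Ccne1, 0.5146 for Tk1, 0.5047 for Tyms, 0.4948 for Rrm2 and 0.3932 for Dut. Each of the 5 calls was lost in 2 to 6 of the 15 fits without 1 library, and with the replicate block 3 of them were left.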

How the results depend on the processing

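The genotype differences changed least. Of the 57 genes, 52 were called lower without cholesterol in every fit (the exceptions were Rfc2, Pola2, Fen1, E2f2 and Slbp) and 53 with cholesterol. Leaving out 1 library gave 5232 to 6380 genes called, 53 to 55 of the 57 called lower and a median of -0.95 to -0.87 without cholesterol, and 3640 to 4192, 53 to 54 and -0.67 to -0.61 with it. Total counts alone moved the medians to -1.05 and -0.77; they shifted the median of all genes by -0.14 and -0.13, and the calls from 3222 lower and 2985 higher to 4379 and 1820 without cholesterol, and from 2261 and 2036 to 3666 and 1115 with it. Among the 45 genes with little shared sequence the median without cholesterol was -0.86, against -0.91 over all 57, and the reason was not tested. E2f2 changed sign: without cholesterol to -0.11 with total counts alone and -0.0052 to 0.063 without 1 library, and with cholesterol to 0.00033 with at least 10 counts in every library, 0.00023 with the replicate block and -0.089 to 0.13 without 1 library.

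The cholesterol responses depended on the fit, and the cause was not tested. In WT cells 399 genes were called, and 881 with DESeq2, 607 without the filter and 144 with only the groups compared. Of the 57 genes, 8 were called lower with DESeq2, 4 with total counts alone, 1 without the filter and 1 with only the groups compared. Without 1 library there were 146 (WT foamy replicate 2) to 526 (WT foamy replicate 4) genes and 1 to 5 of the 57, with a median of -0.18 to -0.13. In Trem2-/- cells 20 genes were called, 56 with DESeq2, 61 without the filter and 10 to 18 without 1 library, with 0 of the 57 called higher throughout and a median of 0.04 to 0.08. For the difference between responses 518 genes were called, 985 with DESeq2, and without 1 library from 201 (Trem2-/- non-foamy replicate 1 left out) to 661 (WT foamy replicate 4 left out). Of the 57 genes, 10 were called with DESeq2 and 1 (without WT foamy replicate 2) to 9 (without Trem2-/- foamy replicate 4) without 1 library, with a median of 0.17 to 0.23.

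The labels do not say whether replicate numbers pair the samples. Deviations of same-numbered libraries correlated at -0.20 to 0.41, highest for replicate 3 of the WT groups. The own number was the best match in 2 of 4 pairs in WT and 0 of 3 in Trem2-/- cells. For the WT libraries these values do not settle whether the numbers mark pairs. With the replicate block, 294 genes and 3 of the 57 were called in the difference between responses (Tyms and Ccne1 were lost, adjusted p = 0.051 and 0.053, edgeR), and the number of members called lower in either genotype comparison was the same. Over all single-gene values, 1891 kept direction and call, 22 gained a call, 33 lost one and 7 changed sign. Depth was not varied. The lowest count of any member in a library was 99, in Fen1, whose call was lost in 5 of 7 fits without 1 library.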
